A study of Mus musculus with 105 samples.

Results

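Messenger RNA of a mouse embryonic stem cell line (ESC) was compared with that of dividing mouse embryonic fibroblasts (DMEF), gene by gene. The levels compared came from the 4 libraries of these lines, 2 per line, out of 105 samples in the series. Nearly all of the others were small-RNA libraries of a 5-ethynyluridine labelling experiment. The ESC line is labelled v6.5, strain C57BL/6, cell type embryonic stem cells. It was grown in DMEM/F12 with B27, N2, LIF (leukaemia inhibitory factor) and the inhibitors PD0325901, which blocks MEK, and CHIR99021, which blocks GSK3. The DMEF line is labelled as embryo-derived fibroblasts, strain C57BL/6J, and was grown in DMEM with fetal bovine serum. Both were passaged every few days and carry the label passages 5 to 15. Another line in the same table, contact-inhibited fibroblasts (CIMEF, 2 libraries), is given beside the others where a level is of interest. The CIMEF libraries were also part of the fit. They enter the filter on low counts, the scaling and the estimate of spread behind each SE and p-value. The libraries carry no labelling time, and each line is 1 culture type with its own medium, so cell identity, strain and medium cannot be told apart. Nothing in the labels says that the replicates came from separate cultures, so p-values measure only the spread between libraries.

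Embryonic stem cells grown with LIF and both inhibitors are held in a naive state that resembles the inner cell mass, and a small network of transcription factors around Oct4, Sox2 and Nanog keeps them there. Fibroblasts are connective-tissue cells that secrete collagen-rich matrix, pull on it through actin stress fibres and carry a positional code of Hox genes. Both kinds of cell divide, and stem cells are known for a shortened G1 phase.

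Polyadenylated RNA was sequenced and reads were counted per gene. The 2 ESC libraries held 25828188 and 23285365 counts, the 2 DMEF libraries 29083076 and 34093791, and the 2 CIMEF libraries 26753699 and 23030907. Of 54532 gene identifiers, 32500 had a count and 18094 passed the filter on low counts and were tested. Levels are in CPM, read counts per 1000000 of the TMM-scaled library total, and are not divided by gene length, so they compare libraries and not genes. The ESC replicates differed by an SD of 0.161 on the log2 scale and the DMEF replicates by 0.329. The CIMEF replicates, which share the estimate of spread, differed by 0.546. Between the ESC replicates the genes that differed most were short nuclear or histone RNAs without a poly(A) tail, such as Rn7sk with 422 and 187 CPM, and between the DMEF replicates Egr1 with 152 and 28.2 CPM. Gm42418, a locus known to collect ribosomal RNA reads, took 7.95% and 4.53% of the ESC counts, against 2.84% and 2.82% of the DMEF counts.

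The 2 lines differed at most of the genes that were tested. At an adjusted p under 0.05 (edgeR's quasi-likelihood test, Benjamini-Hochberg over all tested genes), 5488 genes (30.3%) were higher in ESC and 5513 (30.5%) were lower, 60.8% in either direction. Against a threshold of 4-fold, 1798 genes (9.94%) were higher and 1985 (11%) were lower, 20.9% in either direction. These shares are the background for every count below. The gene lists were chosen with earlier results of these data known, so an excess over these shares is a description and not a test. In bulk RNA, fewer cells of a type and less RNA per cell cannot be told apart. A fit of only the 4 ESC and DMEF libraries gave 6100 higher and 5948 lower genes out of 17074 tested. The median log2 difference over all tested genes was 0.06. Scaling by library totals alone gave 7144 higher and 4472 lower genes, so that 61.5% of the calls were higher in ESC, against 49.9% with TMM scaling, and upper-quartile scaling gave 59.5%. Those scalings moved the median of all genes to 0.41 and 0.34.

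No gene that was abundant in ESC was absent from the fibroblast libraries, or the reverse. Of 2142 genes at 100 CPM or more in ESC, 0 were without a count in either DMEF library, and the lowest level was 0.353% of the ESC mean in DMEF replicate 1 and 0.526% in DMEF replicate 2. Of 2535 genes at 100 CPM or more in DMEF, 0 were without a count in ESC, with lowest levels of 0.44% and 0.537%. The 12 stem cell markers, from Pou5f1 to Dppa3, lay at a median of 0.755% and 0.991% of their ESC level in the DMEF libraries and of 0.86% and 0.572% in the CIMEF libraries. Their summed level was 5012 and 4971 CPM in ESC, against 38.1 and 49.3 CPM in DMEF. A level near 1% of the other line is not read as expression here, and its source was not tested. Among these abundant genes the log2 differences reached 7.44 and -7.54 and no farther.

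**Figure D1:**
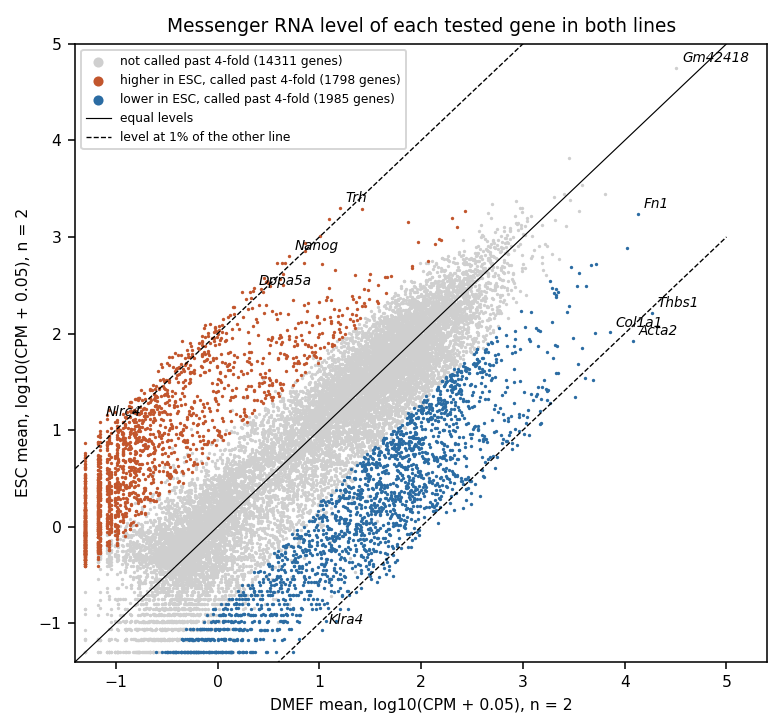
Mean level of each of the 18094 tested genes in DMEF (x axis) and in ESC (y axis), both as log10(CPM + 0.05), n = 2 libraries each. Orange points are the 1798 genes called higher past 4-fold and blue points the 1985 called lower; the dashed lines mark 1% of the other line, along which the most line-restricted abundant genes pile up.

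Among genes at 10 CPM or more in their higher line, those with the greatest difference were mostly sparse in the other line. Nlrc4, an inflammasome sensor, had 12.2 and 12.1 CPM in the ESC libraries, against 0.04 and 0 CPM in the DMEF libraries. That is 671 counts in ESC against 1 count in DMEF, a ratio of 680.5 times (95% interval 122 to 26917). The interval is a binomial one on the summed counts and leaves out the spread between libraries. Btla, a lymphocyte inhibitory receptor, had 15.6 and 16.6 CPM in the ESC libraries, against 0.04 and 0.0322 CPM in the DMEF libraries. Lpar5, a receptor for lysophosphatidic acid, had 10.7 and 9.94 CPM in ESC, against 0.0801 and 0 CPM in DMEF, and Vrtn, a gene linked to vertebral number in pigs, had 13.3 and 12 CPM in ESC, against 0.04 and 0.0644 CPM in DMEF. Nphs1, which encodes the podocyte protein nephrin, and Ildr1, a tricellular junction protein, had 18.6 and 20.4 CPM in ESC, against 0.0801 and 0.0966 CPM in DMEF for Nphs1, and 48.8 and 47.8 CPM in ESC, against 0.16 and 0.29 CPM in DMEF for Ildr1. For all 6 genes every ESC library was far above every DMEF library, and the CIMEF libraries stood with DMEF, at 0.0744 to 0.223 CPM.

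The same rule for genes lower in ESC named 12 genes, and those described here were Inhba, Ptgs2, Col10a1, Ccl7, Zfp469 and Rgs4. Inhba, which encodes the activin A subunit, had 1.66 and 2.38 CPM in the ESC libraries, against 419 and 334 CPM in the DMEF libraries (log2 -7.54, SE 0.26). Ptgs2, the inducible cyclooxygenase, had 1.69 and 1.68 CPM in the ESC libraries, against 367 and 256 CPM in the DMEF libraries (log2 -7.53, SE 0.29). Col10a1, the collagen of hypertrophic cartilage, had 1.37 and 1.64 CPM in ESC, against 291 and 224 CPM in DMEF. The CIMEF libraries lay between the other lines, with 58.2 and 67.5 CPM for Inhba, 12 and 8.92 CPM for Ptgs2 and 32.3 and 28 CPM for Col10a1. Ccl7, a monocyte chemokine, had 0.0705 and 0.112 CPM in ESC, against 20.1 and 17.8 CPM in DMEF, and Zfp469, a zinc-finger gene tied to corneal collagen in humans, had 0.247 and 0.372 CPM in ESC, against 50.8 and 46.6 CPM in DMEF. Rgs4, a brake on G-protein signalling, was counted 3 times in ESC and 813 times in DMEF. DMEF over ESC came to 267 times (95% interval 91.1 to 1299, which again leaves out the spread between libraries).

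Most of the abundant transcripts of ESC were also abundant in DMEF, whereas several of the abundant transcripts of DMEF were low in ESC. Hsp90ab1, a cytosolic chaperone, had 6648 and 6582 CPM in the ESC libraries, against 2663 and 3072 CPM in the DMEF libraries (log2 1.21, SE 0.15). Eef2, a translation elongation factor, had 3509 and 3426 CPM in ESC, against 3520.4 and 4040.0 CPM in DMEF, and Tubb5, a tubulin, had 2419.9 and 2437 CPM in ESC, against 2617 and 3155 CPM in DMEF, and neither passed the test. Trim28, a co-repressor of transposable elements, had 2232 and 2163 CPM in the ESC libraries, against 452 and 537 CPM in the DMEF libraries (log2 2.15, SE 0.17). Of the 12 most abundant genes of ESC, only Trh, which encodes thyrotropin-releasing hormone, was near the floor in DMEF, with 2008 and 1972 CPM in ESC, against 13.9 and 17.6 CPM in DMEF. Of the 12 most abundant genes of DMEF, Thbs1, the adhesion glycoprotein thrombospondin 1, had 152 and 172 CPM in the ESC libraries, against 18848 and 18127 CPM in the DMEF libraries (log2 -6.83, SE 0.20). Col12a1 had 31 and 34.3 CPM in ESC, against 5947 and 3715 CPM in DMEF, and Ahnak, a giant scaffold protein, had 311 and 311 CPM in ESC, against 4519 and 3855 CPM in DMEF.

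**Figure D2:**
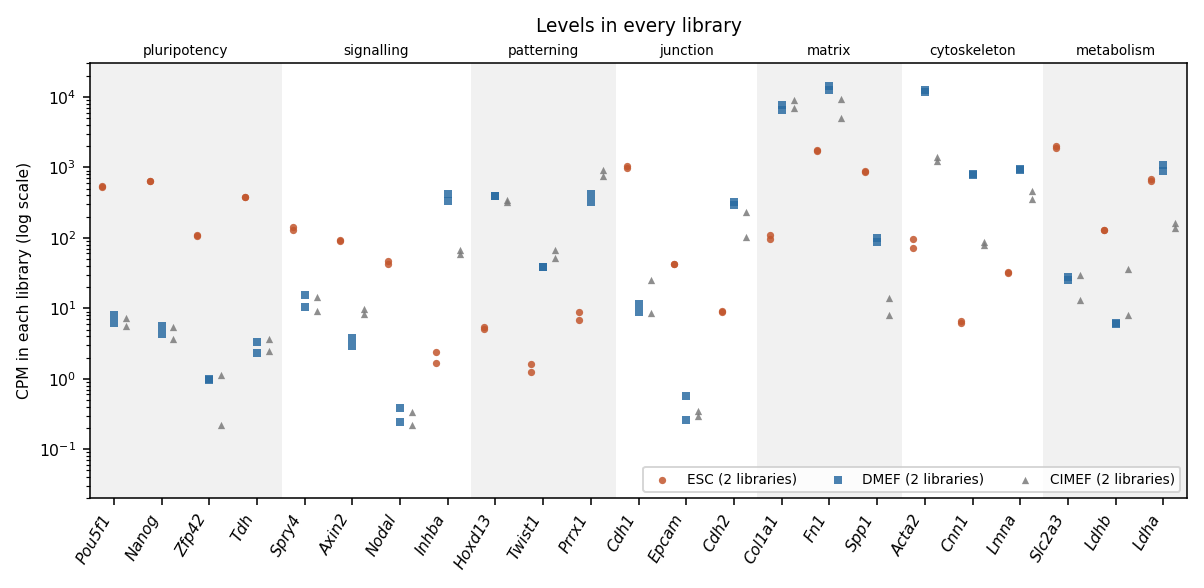
CPM (log axis) in each of the 2 ESC, 2 DMEF and 2 CIMEF libraries for 23 genes named in the text, grouped by role. The replicates of ESC and of DMEF nearly coincide for most of these genes, and the stem cell genes lie close to 1% of their ESC level in all 4 fibroblast libraries.

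The transcription factors and markers of naive pluripotency were all higher in ESC, 25 of 25, with a median log2 difference of 6.90. For Nanog the libraries gave 639 and 639 CPM in the ESC libraries, against 4.36 and 5.54 CPM in the DMEF libraries (log2 7.01, SE 0.26). Tfcp2l1 and Esrrb, factors of the naive circuit, had 1537 and 1519.9 CPM in ESC, against 11.2 and 13.5 CPM in DMEF for Tfcp2l1, and 866 and 869 CPM in ESC, against 5.84 and 8.6 CPM in DMEF for Esrrb. The Krüppel-like factors differed least. Klf5 had 209.7 and 205 CPM in ESC, against 47.8 and 46.3 CPM in DMEF, Klf2 125 and 127 CPM in ESC, against 17.3 and 14.6 CPM in DMEF and Klf4 144 and 149 CPM in ESC, against 12.7 and 12.7 CPM in DMEF. Klf5, at log2 2.14, SE 0.13, was the member not called past 4-fold. Since the medium holds LIF and a GSK3 inhibitor only in ESC, the share of medium and of cell type in these levels was not tested.

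Genes tied to the later, primed epiblast were also mostly higher in ESC. Of 12 tested, 9 were higher in ESC and 2 lower. Zic2, a zinc-finger factor, had 115 and 107 CPM in ESC, against 1.44 and 1.71 CPM in DMEF. Foxd3 reached 7.75 and 7.3 CPM in ESC, against 0.04 and 0.0322 CPM in DMEF. Otx2, a factor that drives exit from the naive state, was at 0.881 and 0.893 CPM in ESC. Fgf5, the usual primed marker, was lower in ESC, with 0.528 and 0.558 CPM in the ESC libraries, against 34.6 and 27.2 CPM in the DMEF libraries, and so was Cdh2, N-cadherin, with 8.88 and 9.16 CPM in ESC, against 289.9 and 319.7 CPM in DMEF. Pou3f1 (Oct6) did not pass, at 0.81 and 0.819 CPM in ESC, against 0.28 and 0.451 CPM in DMEF. Genes of the 2-cell-like state were at the limit of detection: of 11 listed, 7 had a count and 0 were tested, and the highest, Zscan4d, had 0.176 and 0.0745 CPM in ESC and no count in DMEF.

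Genes normally restricted to germ cells were higher in ESC for 12 of 13 tested, though most were low. Rpl10l, a testis copy of a ribosomal protein gene, had 44.5 and 47.7 CPM in ESC, against 0.681 and 0.58 CPM in DMEF, and since it lies close in sequence to Rpl10 its count is uncertain. Piwil2, a piRNA-binding protein, had 10.5 and 10.5 CPM in ESC, against 0.36 and 0.258 CPM in DMEF. Ddx4 (Vasa) and Dazl, RNA-binding proteins of germ cells, had 8.88 and 10.0 CPM in ESC, against 0.52 and 0.644 CPM in DMEF for Ddx4, and 8.14 and 6.22 CPM in ESC, against 0.04 and 0.0966 CPM in DMEF for Dazl. Hormad1, a meiotic chromosome protein, had 1.73 and 2.23 CPM in ESC and no count in DMEF, at least 36.8-fold higher over the summed libraries with a floor of 3 counts. Tdrkh, a tudor-domain protein of the piRNA pathway, was lower in ESC, with 1.02 and 0.745 CPM in ESC, against 6.6 and 5.41 CPM in DMEF.

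Enzymes that write and erase DNA methylation changed member by member. The maintenance enzyme Dnmt1 did not pass the test, at 546 and 534 CPM in the ESC libraries, against 502 and 487 CPM in the DMEF libraries (log2 0.13, SE 0.12). Its cofactor Uhrf1 was higher in ESC, with 538 and 518 CPM in ESC, against 125 and 155 CPM in DMEF. The de novo enzyme Dnmt3b and its partner Dnmt3l had 162 and 153 CPM in ESC, against 3.0 and 4.44 CPM in DMEF for Dnmt3b, and 80.1 and 80.1 CPM in ESC, against 0.4 and 0.805 CPM in DMEF for Dnmt3l, while Dnmt3a differed by log2 0.38, SE 0.13, a call that was lost when any 1 library was left out (adjusted p = 0.0699 to 0.237, edgeR). The Tet dioxygenases, which oxidise methylcytosine, split. Tet1 had 519.6 and 553 CPM in the ESC libraries, against 3.92 and 4.64 CPM in the DMEF libraries, and Tet2 had 208 and 216 CPM in ESC, against 22.1 and 23.6 CPM in DMEF. Tet3 went the other way, with 7.89 and 7.37 CPM in the ESC libraries, against 90.5 and 102 CPM in the DMEF libraries (log2 -3.65, SE 0.17). In total 7 of 11 were higher and 1 lower.

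Polycomb genes were higher in ESC for 15 of 20 and lower for 4, with a median of 1.33. The core of the PRC2 complex was higher in ESC: Ezh2 had 337 and 334 CPM in ESC, against 123 and 128 CPM in DMEF and Eed 173 and 175 CPM in ESC, against 46.6 and 57.1 CPM in DMEF. Among accessory subunits the values were further apart. Epop had 219.6 and 221 CPM in the ESC libraries, against 4.8 and 6.22 CPM in the DMEF libraries (log2 5.32, SE 0.19), Jarid2 had 239 and 233 CPM in ESC, against 23.4 and 25.5 CPM in DMEF and Mtf2 267 and 253 CPM in ESC, against 40.3 and 49.8 CPM in DMEF. Their counterpart Phf19 was lower, with 3.56 and 2.75 CPM in ESC, against 22.4 and 21.7 CPM in DMEF. Chromobox readers of PRC1 went in opposite directions. Cbx7 had 139 and 145 CPM in the ESC libraries, against 4.12 and 3.51 CPM in the DMEF libraries, whereas Cbx8 had 0.669 and 0.782 CPM in ESC, against 6.97 and 11.9 CPM in DMEF. The ring-finger partners did likewise, with Pcgf6 at 92.1 and 91.8 CPM in ESC, against 15.1 and 18 CPM in DMEF and Bmi1 (Pcgf4) at 21.7 and 23.6 CPM in ESC, against 135 and 124 CPM in DMEF. Of the BAF chromatin-remodelling subunits 6 of 17 were higher and 6 lower, near the background. With library totals alone 10 were higher and 4 lower, and with upper-quartile factors 8 and 4. Among these subunits the ATPase Smarca2 (Brm) was lower, with 3.45 and 5.58 CPM in ESC, against 43.4 and 32.7 CPM in DMEF, while its alternative Smarca4 (Brg1) did not pass, at 418 and 404 CPM in ESC, against 467 and 449.8 CPM in DMEF. The paralogous scaffolds were opposed, Smarcc1 at 544 and 538 CPM in ESC, against 360.0 and 314 CPM in DMEF and Smarcc2 at 35 and 33.2 CPM in ESC, against 229 and 113 CPM in DMEF. Without ESC replicate 2 the higher BAF count was 3, and Smarcc1 lost its call without either ESC replicate (adjusted p = 0.0582 and 0.0612).

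The pathway of the added LIF was present with uneven members: 4 of 10 were higher in ESC and 6 lower. The receptor subunit Lifr had 115 and 105 CPM in ESC, against 79.2 and 74.1 CPM in DMEF, while the shared subunit gp130 (Il6st) had 109 and 101 CPM in ESC, against 882 and 775 CPM in DMEF and the kinase Jak1 62 and 59.3 CPM in ESC, against 590.1 and 539 CPM in DMEF. Osmr, the oncostatin M receptor, stood at 3.03 and 3.54 CPM in the ESC libraries, against 236 and 217 CPM in the DMEF libraries (log2 -6.11, SE 0.23). Of the genes that the pathway induces, Socs3 had 85.4 and 83.1 CPM in ESC, against 20.8 and 23.6 CPM in DMEF and Pim3 54.8 and 54.8 CPM in ESC, against 21.8 and 23.3 CPM in DMEF, both higher in ESC. Pim1 was higher as well. Cish, of the same list, was lower, with 0.951 and 1.53 CPM in ESC, against 3.84 and 5.67 CPM in DMEF. Stat3 (log2 -0.62, SE 0.16) and Lif (log2 -1.67, SE 0.53) were lower too. Without either ESC replicate 2 were called higher, without ESC replicate 1 only 3 were called lower, and Lifr lost its call without either ESC replicate (adjusted p = 0.117 and 0.0734, edgeR).

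Readouts of ERK signalling, which PD0325901 blocks, went both ways: 6 of 20 were higher in ESC and 11 lower, beside 30.3% and 30.5% of all genes. The higher count was near that background. The lower members included the AP-1 genes and early growth genes. Fosl2 had 3.17 and 3.31 CPM in the ESC libraries, against 290.0 and 282 CPM in the DMEF libraries (log2 -6.46, SE 0.29), Fosl1 had 0.493 and 0.521 CPM in ESC, against 39.5 and 32.6 CPM in DMEF and Jun had 2.61 and 2.42 CPM in ESC, against 115 and 108 CPM in DMEF. Egr1 had 2.4 and 2.38 CPM in ESC, against 152 and 28.2 CPM in DMEF, and Fos had 0.881 and 1.19 CPM in ESC, against 23.6 and 7.5 CPM in DMEF, so that DMEF replicate 1 was above replicate 2 for both. The higher members included feedback genes downstream of FGF. Etv5 had 241 and 234 CPM in the ESC libraries, against 11 and 12.6 CPM in the DMEF libraries (log2 4.33, SE 0.21), Spry4 had 143 and 127 CPM in ESC, against 15.4 and 10.3 CPM in DMEF and Etv4 101 and 108 CPM in ESC, against 14.7 and 16.9 CPM in DMEF. Dusp6, an ERK phosphatase, had 43.3 and 43.2 CPM in ESC, against 27.6 and 16.3 CPM in DMEF (log2 0.98, SE 0.25), a call that was lost without either ESC replicate (adjusted p = 0.0522 and 0.058, edgeR).

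Genes of the Wnt pathway, which CHIR99021 turns on below the receptor, were higher in ESC for 11 of 21 and lower for 8. Several direct targets were among the higher ones. Axin2 had 93 and 90.8 CPM in the ESC libraries, against 2.92 and 3.77 CPM in the DMEF libraries (log2 4.77, SE 0.21), Sp5 had 32.8 and 32.6 CPM in ESC, against 0.32 and 0.129 CPM in DMEF, Cdx1 had 112 and 122 CPM in ESC, against 0.801 and 0.966 CPM in DMEF and Notum, a secreted Wnt inhibitor, had 44.2 and 48.3 CPM in ESC, against 1.36 and 0.998 CPM in DMEF. Dkk1, another secreted inhibitor, had 1.8 and 1.56 CPM in ESC and no count in DMEF, at least 31.4-fold higher. Other targets were lower in ESC: Lgr5 had 0.387 and 1.23 CPM in ESC, against 29.1 and 31.9 CPM in DMEF and Rnf43 0.951 and 1.27 CPM in ESC, against 16.2 and 18.2 CPM in DMEF. Among ligands, Wnt5a had 2.01 and 2.2 CPM in the ESC libraries, against 146 and 129 CPM in the DMEF libraries. Of the TCF factors, Tcf7 and Lef1 were higher, at 78.2 and 75.1 CPM in ESC, against 7.05 and 8.28 CPM in DMEF for Tcf7, and 11.8 and 13.7 CPM in ESC, against 0.721 and 0.934 CPM in DMEF for Lef1, Tcf7l2 was lower with 16.8 and 18.1 CPM in ESC, against 115 and 134 CPM in DMEF, and Tcf7l1 did not pass. Beta-catenin itself (Ctnnb1) did not pass either, at 671 and 653 CPM in ESC, against 800.2 and 625 CPM in DMEF. Without DMEF replicate 1 the lower count was 5.

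Ligands and receptors of the TGF-beta family were lower in ESC for 18 of 24, and the 3 higher members formed a group of their own. These were Nodal, with 46.3 and 42.8 CPM in the ESC libraries, against 0.24 and 0.386 CPM in the DMEF libraries, and its secreted antagonists Lefty1 and Lefty2. Lefty2 had 93.7 and 91.6 CPM in ESC, against 0.761 and 0.644 CPM in DMEF. On the lower side, Tgfb3 had 2.78 and 3.02 CPM in ESC, against 294 and 197 CPM in DMEF, the latency protein Ltbp1 had 14.2 and 14.1 CPM in ESC, against 1046 and 958 CPM in DMEF and the receptor Tgfbr2 had 3.1 and 4.84 CPM in ESC, against 159 and 193 CPM in DMEF. The BMP targets Id1, Id2 and Id3 were lower in ESC too, Id2 most, with 2.22 and 2.72 CPM in ESC, against 67.3 and 74.2 CPM in DMEF. Tgfbr1 and Smad7 did not pass.

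Growth factor receptors with tyrosine kinase activity were lower in ESC for 16 of 20 and higher for 3. Axl had 7.22 and 8.08 CPM in the ESC libraries, against 732 and 649.6 CPM in the DMEF libraries (log2 -6.50, SE 0.19), the VEGF receptor Flt1 had 0.634 and 0.484 CPM in ESC, against 90.5 and 67.7 CPM in DMEF and Egfr had 6.52 and 8.23 CPM in ESC, against 113 and 94.7 CPM in DMEF. The PDGF receptors, which mark mesenchyme, had 2.32 and 2.79 CPM in ESC, against 55.6 and 59.3 CPM in DMEF for Pdgfra, and 5.67 and 6.85 CPM in ESC, against 171 and 156 CPM in DMEF for Pdgfrb. Kit, the stem cell factor receptor, had 191 and 182 CPM in the ESC libraries, against 1.2 and 1.55 CPM in the DMEF libraries (log2 7.07, SE 0.22), and Erbb3 had 48.7 and 46.1 CPM in ESC, against 1.32 and 1.1 CPM in DMEF. Ligands were lower for 11 of 17 and higher for 4. Csf1, which feeds macrophages, had 8.24 and 9.38 CPM in the ESC libraries, against 1164 and 1137 CPM in the DMEF libraries. Fgf7 had 2.47 and 2.61 CPM in ESC, against 189.9 and 165 CPM in DMEF, whereas Fgf4, the autocrine FGF of stem cells, had 269 and 266 CPM in ESC, against 1.32 and 2.71 CPM in DMEF and Pdgfa 91.6 and 93.1 CPM in ESC, against 25.8 and 31.2 CPM in DMEF.

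Hox genes were lower in ESC for 19 of 33 tested, 12 of them past 4-fold. The limb-type posterior members carried the greatest levels in DMEF. Hoxd13 had 5.0 and 5.47 CPM in the ESC libraries, against 391 and 394 CPM in the DMEF libraries (log2 -6.23, SE 0.16), Hoxa13 had 0.564 and 1.01 CPM in ESC, against 54.9 and 41.7 CPM in DMEF, Hoxa10 had 0.845 and 1.23 CPM in ESC, against 57 and 56.7 CPM in DMEF and Hoxd11 0.81 and 1.01 CPM in ESC, against 47.2 and 31.3 CPM in DMEF. Their ESC levels were low but lay above the level near 1% of the other line described above, and their source was not tested. Hoxa6 had no count in ESC and 1.04 and 1.45 CPM in DMEF, at least 23.3-fold lower in ESC. The 5 higher members were at low levels, namely Hoxb1, Hoxb13, Hoxc4, Hoxc12 and Hoxc13, of which Hoxc13 was the most abundant with 4.05 and 4.47 CPM in ESC, against 0.44 and 0.612 CPM in DMEF. Without ESC replicate 2, Hoxb13 and Hoxc12 fell under the filter on low counts, and 3 were called higher. With DESeq2 these members did not pass either (adjusted p = 0.0839 for Hoxb13 and 0.101 for Hoxc12), and without DMEF replicate 1 Hoxb13 did not (0.0507, edgeR). Hoxb and Hoxc genes were low in DMEF as well, Hoxb9 being the greatest with 8.33 and 4.8 CPM. Along the chromosome, 7 neighbours from Evx2 to Hoxd8 on chromosome 2 (74652989 to 74707933, GRCm38.p6) were all lower past 4-fold, as were 6 from Hoxa9 to Hottip on chromosome 6 (52223097 to 52267603). Both runs were picked by this shared direction, under a rule given further below.

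Transcription factors of mesenchyme were lower in ESC for 20 of 21, with a median of -4.83, and 0 were higher. Prrx1, a limb mesenchyme factor, had 6.9 and 8.93 CPM in the ESC libraries, against 415 and 323 CPM in the DMEF libraries (log2 -5.54, SE 0.24). Runx2, the osteoblast factor, had 1.23 and 1.6 CPM in ESC, against 147 and 119.7 CPM in DMEF and Tbx15 3.42 and 4.95 CPM in ESC, against 142 and 148 CPM in DMEF. The inducers of epithelial-to-mesenchymal transition were among them: Snai2 had 1.97 and 2.12 CPM in ESC, against 67.9 and 48.5 CPM in DMEF, Twist1 1.23 and 1.6 CPM in ESC, against 38.1 and 38.6 CPM in DMEF and Zeb2 1.73 and 2.01 CPM in ESC, against 74.8 and 79.4 CPM in DMEF. Ebf1 was the member that did not pass, at 14.4 and 14.9 CPM in ESC, against 36 and 26.3 CPM in DMEF and 427 and 154 CPM in CIMEF. It passed as lower with only the 4 ESC and DMEF libraries (adjusted p = 0.00121, edgeR), with the replicate block (0.0286), with no filter on low counts (1.28e-08) and with DESeq2 (0.023).

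Epithelial junction genes stood on the other side, with 14 of 16 higher in ESC and a median of 6.68. E-cadherin (Cdh1) had 1032 and 991 CPM in the ESC libraries, against 8.93 and 11.4 CPM in the DMEF libraries (log2 6.63, SE 0.53), while its mesenchymal counterpart N-cadherin went the other way, as given above. Epcam had 41.9 and 43.2 CPM in ESC, against 0.56 and 0.258 CPM in DMEF, the tight-junction protein Cldn4 56 and 58 CPM in ESC, against 0.32 and 0.612 CPM in DMEF and the desmosomal cadherin Dsg2 63.3 and 62.1 CPM in ESC, against 0.28 and 0.386 CPM in DMEF. Keratins were split: Krt8 had 15.7 and 16.3 CPM in ESC, against 0.04 and 0.161 CPM in DMEF, and Krt19 was lower in ESC with 2.08 and 1.68 CPM in ESC, against 22.9 and 18.5 CPM in DMEF, a call that was lost without DMEF replicate 1 (adjusted p = 0.0535, edgeR). Pkp2, a desmosomal plaque protein, was at 41.3 and 43.1 CPM in ESC, against 55.4 and 44 CPM in DMEF and did not pass. The splicing factor Esrp1, which is specific to epithelia, had 8.03 and 8.93 CPM in ESC, against 0.04 and 0.129 CPM in DMEF.

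Collagens and the enzymes that modify and cross-link them were lower in ESC for 26 of 27, 24 of them past 4-fold, with a median of -5.71. Summed over the list, ESC had 921 and 1011 CPM, against 38583 and 32661 CPM in DMEF. Col5a2, a fibril-nucleating chain, had 31.6 and 38.3 CPM in the ESC libraries, against 4379.7 and 3800.5 CPM in the DMEF libraries (log2 -6.87, SE 0.21), and the basement-membrane chain Col4a1 had 20.3 and 25 CPM in ESC, against 1387 and 1278 CPM in DMEF. Lox, which cross-links collagen, had 34.7 and 43 CPM in ESC, against 2474 and 1907 CPM in DMEF, and Serpinh1, the collagen chaperone of the endoplasmic reticulum, had 133 and 133 CPM in ESC, against 1812 and 2025 CPM in DMEF. Col18a1 was the member that was higher in ESC, with 116 and 116 CPM in ESC, against 52.8 and 68.4 CPM in DMEF.

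Other matrix proteins were lower in ESC for 17 of 25 and higher for 3. Fibulin 2 (Fbln2) had 16.7 and 21.3 CPM in ESC, against 1846 and 1868 CPM in DMEF, biglycan (Bgn) 44.3 and 52.5 CPM in ESC, against 3564 and 3446 CPM in DMEF and tenascin C (Tnc) 8.45 and 11.1 CPM in ESC, against 955 and 869 CPM in DMEF. Fibronectin (Fn1) was lower in ESC but remained one of its abundant transcripts, with 1737 and 1717 CPM in the ESC libraries, against 14266 and 12476 CPM in the DMEF libraries (log2 -2.95, SE 0.30). The chains of laminin 111 were not lowered together. Lama1 had 63.6 and 61.9 CPM in ESC, against 4.84 and 3.25 CPM in DMEF and was higher, Lamc1 had 607 and 605 CPM in ESC, against 572 and 510.3 CPM in DMEF and did not pass, and Lamb1 was lower with 22.8 and 21.6 CPM in ESC, against 384 and 371 CPM in DMEF. Osteopontin (Spp1) had 872 and 895 CPM in the ESC libraries, against 100.2 and 86.7 CPM in the DMEF libraries (log2 3.24, SE 0.26), the greatest level of a matrix gene called higher in ESC. Decorin (Dcn) and lumican (Lum), usual fibroblast proteoglycans, were nearly absent from DMEF as well, with 1.36 and 1.13 CPM for Dcn and 0.36 and 0.386 CPM for Lum, and with 58 and 24.3 CPM for Dcn and 9.96 and 27.2 CPM for Lum in CIMEF. Fap, another fibroblast marker, was at 0.0801 and 0.0322 CPM in DMEF. The call for Dcn was lost in 3 of the 4 fits that leave out 1 library (adjusted p = 0.0503 to 0.0714, edgeR). Of 11 fibroblast markers tested, 10 were lower in ESC, so the DMEF label holds for most of them, while Dcn, Lum and Fap were low in DMEF too.

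Proteases that remodel matrix and their inhibitors were lower for 16 of 19. Mmp2 had 10.1 and 11.1 CPM in ESC, against 341 and 314 CPM in DMEF, Mmp14 30.3 and 33.1 CPM in ESC, against 829.5 and 819 CPM in DMEF and the urokinase Plau 1.34 and 1.56 CPM in ESC, against 143 and 136 CPM in DMEF. The inhibitor Timp3 had 18.5 and 22.4 CPM in the ESC libraries, against 1897 and 1566 CPM in the DMEF libraries (log2 -6.40, SE 0.43). Integrins and surface receptors were lower for 15 of 24 and higher for 6. Integrin beta 1 (Itgb1), the common partner, had 312 and 309.6 CPM in ESC, against 3619 and 3109.9 CPM in DMEF, and Cd44, the hyaluronan receptor, had 3.56 and 4.5 CPM in the ESC libraries, against 522 and 544 CPM in the DMEF libraries (log2 -7.05, SE 0.24). Integrin alpha 6 (Itga6), the laminin receptor, did not pass, at 165 and 162 CPM in ESC, against 172 and 140.4 CPM in DMEF. Itgb7 was higher in ESC, with 18.8 and 15.8 CPM in ESC, against 0.12 and 0.129 CPM in DMEF.

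The contractile cytoskeleton was lower in ESC in every member listed, 19 of 19, all past 4-fold, with a median of -5.74. Smooth-muscle actin (Acta2) had 71.9 and 95.4 CPM in the ESC libraries, against 11749 and 12384 CPM in the DMEF libraries (log2 -7.17, SE 0.24). Transgelin (Tagln) had 19.4 and 24 CPM in ESC, against 3072 and 3381 CPM in DMEF, calponin (Cnn1) 6.2 and 6.55 CPM in ESC, against 793 and 782 CPM in DMEF and tropomyosin 1 (Tpm1) 69.1 and 72.6 CPM in ESC, against 4041 and 3528 CPM in DMEF. Srf, the factor that controls many of these genes, differed less, with 26.6 and 28.5 CPM in ESC, against 144 and 146 CPM in DMEF (log2 -2.39, SE 0.13). The CIMEF libraries were below DMEF for several, such as Acta2 with 1233 and 1408 CPM and Cnn1 with 87.8 and 79.1 CPM. The YAP-linked matricellular genes Ccn1 and Ccn2 had 14.7 and 16.4 CPM in ESC, against 1596 and 1357 CPM in DMEF for Ccn1, and 33.3 and 32.4 CPM in ESC, against 1924 and 1275 CPM in DMEF for Ccn2.

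Of 10 lamina and filament genes 4 were higher in ESC and 5 lower. Lmna, which encodes lamins A and C, had 31.8 and 33.1 CPM in the ESC libraries, against 906 and 961 CPM in the DMEF libraries (log2 -4.85, SE 0.20), whereas the B-type lamins were higher in ESC. Lmnb1 had 491 and 465 CPM in ESC, against 145 and 167 CPM in DMEF and Lmnb2 89.8 and 80.3 CPM in ESC, against 34.3 and 46.7 CPM in DMEF. The lamin B receptor (Lbr), which tethers chromatin in cells with little lamin A, had 358 and 337 CPM in ESC, against 141 and 130.4 CPM in DMEF. Sun2, which links the lamina to the cytoskeleton, was lower with 18.7 and 19.4 CPM in ESC, against 160.2 and 147 CPM in DMEF, and Sun1 did not pass.

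Core cell cycle genes were near the background, with 7 of 24 higher in ESC and 8 lower. Ccna2 had 367 and 381 CPM in ESC, against 401 and 391 CPM in DMEF and Plk1 151 and 145 CPM in ESC, against 104 and 149.7 CPM in DMEF, and neither passed. With library totals alone or upper-quartile factors the higher count was 14 or 13. Cyclin E1 (Ccne1) had 292 and 291 CPM in the ESC libraries, against 69.2 and 73.7 CPM in the DMEF libraries (log2 2.03, SE 0.21), the helicase subunit Mcm2 had 1181 and 1149.7 CPM in ESC, against 331 and 401 CPM in DMEF, and cyclin D2 (Ccnd2) had 33.4 and 33 CPM in the ESC libraries, against 811 and 565 CPM in the DMEF libraries (log2 -4.37, SE 0.41). Cyclin E2 was lower, with 38.2 and 40.8 CPM in ESC, against 88.3 and 102 CPM in DMEF. The pocket proteins Rb1 and Rbl2, which hold E2F factors back, had 6.2 and 7.37 CPM in ESC, against 44.6 and 24.6 CPM in DMEF for Rb1, and 8.24 and 8.45 CPM in ESC, against 67.5 and 47.3 CPM in DMEF for Rbl2. Mki67, a proliferation marker, was lower in ESC with 202 and 248 CPM in ESC, against 625 and 674 CPM in DMEF, and CIMEF, labelled contact-inhibited, had 1108 and 1031 CPM. Inhibitors of cyclin-dependent kinases were lower for 6 of 7: Cdkn2c had 1.51 and 1.45 CPM in ESC, against 78.7 and 77.2 CPM in DMEF, Cdkn2b 2.61 and 2.61 CPM in ESC, against 43.2 and 45.3 CPM in DMEF and Cdkn2a 18.9 and 21.6 CPM in ESC, against 134 and 158 CPM in DMEF.

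DNA repair genes were higher in ESC for 19 of 24 and lower for 1, with a median of 1.5. Msh6, a mismatch-repair gene, had 936 and 918 CPM in ESC, against 149 and 165 CPM in DMEF. Parp1, a sensor of strand breaks, had 966 and 949.9 CPM in the ESC libraries, against 153 and 146 CPM in the DMEF libraries (log2 2.68, SE 0.13), and Ung, which removes uracil, had 75.4 and 80.2 CPM in ESC, against 12.9 and 13.8 CPM in DMEF. The end-joining genes Lig4 and Prkdc did not pass, at 18.1 and 16 CPM in ESC, against 17.5 and 23 CPM in DMEF for Lig4. Telomere genes were higher for 11 of 13 and lower for 0. Tert, the telomerase enzyme, had 11.2 and 12.1 CPM in ESC, against 3.36 and 2.0 CPM in DMEF, and Dkc1, which binds its RNA, 344 and 349 CPM in ESC, against 75 and 82.9 CPM in DMEF. The p53 gene (Trp53) was higher, with 308 and 313 CPM in the ESC libraries, against 101 and 137 CPM in the DMEF libraries, while 7 of 17 genes of its list were lower and 3 higher (5 or 6 under 5 of the other settings). Mdm2 had 54 and 55.5 CPM in ESC, against 147 and 142 CPM in DMEF, Perp 4.12 and 4.73 CPM in ESC, against 76.7 and 89.6 CPM in DMEF and Fas 0.352 and 0.558 CPM in ESC, against 20.7 and 22.9 CPM in DMEF. Of the apoptosis genes, Bcl2 had 0.669 and 0.633 CPM in ESC, against 25.4 and 13.1 CPM in DMEF and Casp8 1.27 and 1.75 CPM in ESC, against 37.4 and 39.9 CPM in DMEF, and both were lower, whereas Bid was higher with 167 and 160.3 CPM in ESC, against 37.9 and 46.3 CPM in DMEF.

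Of 20 glycolysis identifiers, 9 were higher in ESC and 6 lower, beside 30.3% and 30.5% of all genes. The isoforms given below were picked after their values were seen. For glucose uptake, Slc2a3 (GLUT3) had 1982 and 1885 CPM in the ESC libraries, against 27.9 and 24.9 CPM in the DMEF libraries (log2 6.19, SE 0.41), and Slc2a1 (GLUT1) had 212 and 212 CPM in ESC, against 134 and 139 CPM in DMEF, both higher in ESC. For hexokinase, Hk2 had 391 and 372 CPM in ESC, against 42.6 and 46 CPM in DMEF and was higher, and Hk1 had 122 and 111 CPM in ESC, against 212 and 234 CPM in DMEF and was lower. For phosphofructokinase, Pfkp had 295 and 293 CPM in the ESC libraries, against 11.9 and 12.8 CPM in the DMEF libraries and Pfkl 92.9 and 86.2 CPM in ESC, against 225 and 228 CPM in DMEF, in opposite directions. For lactate dehydrogenase, Ldhb had 128 and 130.0 CPM in ESC, against 5.92 and 6.28 CPM in DMEF and Ldha 676 and 633 CPM in ESC, against 885 and 1076 CPM in DMEF, again opposed. The call for Ldha was lost with library totals alone (adjusted p = 0.247, edgeR), with upper-quartile factors (0.122), without either ESC replicate (0.107 and 0.142) and without DMEF replicate 2 (0.0714). That for Slc2a1 was lost without either ESC replicate (0.0729 and 0.0824) and without DMEF replicate 1 (0.0631). Several enzymes of this list have many processed pseudogenes, among them Gapdh and Pgk1, and their counts are uncertain. Nuclear genes of the respiratory chain were higher for 14 of 20 and lower for 1 (0 without either ESC replicate or without DMEF replicate 1), with a median of 0.77. The 13 protein genes of the mitochondrial genome are listed at 0 in all libraries and were not analysed.

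Amino acid and one-carbon enzymes were higher for 18 of 23 and lower for 2. The enzymes that take threonine and glycine into the folate pool were among them. Tdh, threonine dehydrogenase, had 377 and 378 CPM in the ESC libraries, against 2.32 and 3.35 CPM in the DMEF libraries (log2 7.04, SE 0.28). Its partner Gcat had 28.7 and 28.6 CPM in ESC, against 2.16 and 2.8 CPM in DMEF. The glycine cleavage genes Gldc and Amt had 149.7 and 146 CPM in ESC, against 1.32 and 2.09 CPM in DMEF for Gldc, and 136 and 127 CPM in ESC, against 2.2 and 2.58 CPM in DMEF for Amt. Asns, asparagine synthetase, had 1598 and 1540.1 CPM in ESC, against 204 and 194 CPM in DMEF. Phgdh, the first enzyme of serine synthesis, did not pass, at 41.9 and 38.8 CPM in ESC, against 43.6 and 51.5 CPM in DMEF. Sterol and fatty acid genes were higher for 18 of 21 and lower for 0, with a median of 1.09, Fasn having 1756 and 1749.7 CPM in ESC, against 485 and 415 CPM in DMEF and Dhcr7 154 and 150.2 CPM in ESC, against 16.9 and 13.6 CPM in DMEF. Fetal bovine serum, a source of lipids, is named for the fibroblast medium and not for the ESC medium, so medium and line cannot be told apart here either.

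RNA-binding regulators of splicing were lower for 9 of 15 and higher for 3. The muscleblind proteins, which favour splice forms of differentiated cells, were lower. Mbnl2 had 6.09 and 7.48 CPM in the ESC libraries, against 371 and 241 CPM in the DMEF libraries (log2 -5.49, SE 0.28), Mbnl1 had 28.8 and 28.9 CPM in ESC, against 379 and 300.3 CPM in DMEF, and Celf2 had 4.83 and 4.84 CPM in ESC, against 158 and 109.8 CPM in DMEF. Ptbp1 was higher, with 669 and 673 CPM in ESC, against 473 and 483 CPM in DMEF. Without either ESC replicate only 1 was called higher, and Ptbp1 was not (adjusted p = 0.0951 and 0.122, edgeR). Of regulators of RNA stability, Trim71, a ubiquitin ligase and let-7 target, had 322 and 316 CPM in the ESC libraries, against 3.36 and 5.35 CPM in the DMEF libraries (log2 6.19, SE 0.35), and Igf2bp1 had 881 and 826 CPM in ESC, against 114 and 158 CPM in DMEF. Igf2bp2 was lower, with 53.8 and 56.4 CPM in ESC, against 214 and 184 CPM in DMEF, as was Zfp36, which binds AU-rich elements, with 5.21 and 6.25 CPM in ESC, against 36.4 and 33 CPM in DMEF. The microprocessor gene Drosha had 403 and 403 CPM in ESC, against 198 and 182 CPM in DMEF and was higher, and so was Dicer1 with 252 and 252 CPM in ESC, against 188 and 197 CPM in DMEF, though not without ESC replicate 1, ESC replicate 2 or DMEF replicate 1 (adjusted p = 0.0647 to 0.211). Ago2 had 446 and 439 CPM in ESC, against 448 and 360.3 CPM in DMEF and did not pass.

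Cytokine and inflammation genes were lower for 11 of 14. Cxcl12, a homing chemokine, had 22.6 and 27 CPM in the ESC libraries, against 712 and 636 CPM in the DMEF libraries (log2 -4.76, SE 0.25), and Cxcl1 had 0.106 and 0.223 CPM in ESC, against 17.7 and 19.9 CPM in DMEF. Antigen presentation genes were lower for 8 of 12, led in level by B2m, the light chain of class I molecules, with 19.6 and 22.3 CPM in the ESC libraries, against 417 and 487 CPM in the DMEF libraries (log2 -4.43, SE 0.27). Interferon genes were split at 6 of 18 higher and 6 lower, near the background of 30.3% and 30.5%, and without DMEF replicate 1 at 3 and 3. Without ESC replicate 1 the higher count was 2, and without ESC replicate 2 it was 3. The RNA sensor Ifih1 (MDA5) had 0.247 and 0.223 CPM in ESC, against 21 and 11.2 CPM in DMEF, whereas Ifitm1, a membrane restriction factor, had 40.8 and 44.6 CPM in the ESC libraries, against 0.32 and 0.354 CPM in the DMEF libraries (log2 6.96, SE 0.27). Saa3, an acute-phase gene, was higher in ESC, with 7.89 and 8.0 CPM in ESC, against 0.12 and 0 CPM in DMEF.

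Markers of other cell types were examined by list. The mesendoderm, adipocyte and keratinocyte lists are not described here. Of trophectoderm markers, Cdx2 had 15.4 and 15.5 CPM in ESC, against 0.28 and 0.0966 CPM in DMEF. Tfap2c had 27.5 and 29.2 CPM in ESC, against 0.32 and 0.161 CPM in DMEF. Tead4 had 78.6 and 77.6 CPM in ESC, against 22 and 28.1 CPM in DMEF. All of these were higher in ESC. Gata3 (log2 -6.58, SE 0.28) and Krt7 (log2 -4.40, SE 0.59) were lower. Eomes did not pass, at 49.9 and 49.7 CPM in ESC, against 25.4 and 26.5 CPM in DMEF. Elf5 and Hand1 were at or below 0.106 CPM in every ESC and DMEF library. Of 4 primitive endoderm markers tested, 1 was higher in ESC and 2 lower. Sox7 was higher, with 1.44 and 1.49 CPM in ESC, against 0.04 and 0.129 CPM in DMEF, Gata6 was lower with 0.493 and 0.558 CPM in ESC, against 24.3 and 31.8 CPM in DMEF and so was Dab2 with 2.75 and 3.39 CPM in ESC, against 217 and 157 CPM in DMEF. Gata4 did not pass, at 1.97 and 1.71 CPM in ESC, against 1.0 and 1.42 CPM in DMEF, and Sox17 was at 0.247 and 0.149 CPM in ESC. Of neural markers, Olig2 had 7.61 and 9.01 CPM in ESC, against 0.0801 and 0.0644 CPM in DMEF. Sox1 had 1.34 and 1.86 CPM in ESC, against 0 and 0.0322 CPM in DMEF. Tubb3, the most abundant of the list in ESC, had 77.4 and 73.5 CPM, against 5.48 and 6.47 CPM in DMEF. Pax6 had 2.5 and 1.71 CPM in ESC, against 0.24 and 0.129 CPM in DMEF. All of these were called higher. Map2 was lower, with 10.6 and 11.3 CPM in ESC, against 374 and 299.5 CPM in DMEF. Macrophage genes Ptprc and Csf1r were at or below 0.0966 CPM in all 4 libraries, and endothelial Cdh5 was at or below 0.0745 CPM. Of 4 endothelial markers tested, 2 were higher in ESC and 1 lower. Pecam1 had 64.3 and 65.4 CPM in ESC, against 0.6 and 0.773 CPM in DMEF and Vwf 4.12 and 4.54 CPM in ESC, against 0.24 and 0.193 CPM in DMEF, both higher, and Kdr was lower with 2.08 and 2.57 CPM in ESC, against 17.8 and 14 CPM in DMEF. The summed level per library was 5.92 and 7.82 CPM in ESC against 2.56 and 3 CPM in DMEF for macrophage genes (1 of 2 tested higher, 0 lower). Most of it was Cd68, the higher one, with 5.78 and 7.41 CPM in ESC, against 2.4 and 2.77 CPM in DMEF. For muscle genes the summed levels were 6.41 and 5.96 CPM in ESC, against 5.24 and 5.31 CPM in DMEF (2 of 4 higher, 1 lower). Des was higher, with 3.56 and 2.64 CPM in ESC, against 0.24 and 0.129 CPM in DMEF, and so was Myh3. Actc1 was lower, with 1.23 and 1.68 CPM in ESC, against 4.52 and 5.02 CPM in DMEF. Of 5 cartilage and bone markers tested, 1 was higher in ESC and 4 lower. The higher one was Alpl, alkaline phosphatase and also a stem cell marker, with 347 and 359.7 CPM in ESC, against 2.6 and 3.48 CPM in DMEF. The lower ones were Col10a1, Col2a1 with 0.74 and 0.893 CPM in ESC, against 17.5 and 17 CPM in DMEF, Sox9 with 0.282 and 0.484 CPM in ESC, against 6.04 and 9.79 CPM in DMEF and Acan with 4.58 and 6.07 CPM in ESC, against 13 and 11.7 CPM in DMEF. The call for Acan was lost with library totals alone (adjusted p = 0.0566, edgeR) and when any 1 library was left out (0.0569 to 0.149).

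Among imprinted genes 5 of 21 were higher in ESC and 8 lower, beside 30.3% and 30.5% of all genes. When only the 4 ESC and DMEF libraries were fitted, 11 were higher. H19, a noncoding RNA of growth control, had 4.26 and 5.36 CPM in the ESC libraries, against 163 and 188 CPM in the DMEF libraries, and Grb10 had 114 and 104 CPM in ESC, against 1428 and 1391 CPM in DMEF. Peg10 had 676 and 658 CPM in ESC, against 245 and 231 CPM in DMEF and Nnat 6.76 and 7.97 CPM in ESC, against 0 and 0.0322 CPM in DMEF, and both were higher. Meg3 and Rian, of the Dlk1 cluster, did not pass, at 54.7 and 57.7 CPM in ESC, against 24 and 18.2 CPM in DMEF for Meg3, and the CIMEF replicates were 170.2 and 2.7 CPM. Meg3 passed as higher with only the 4 ESC and DMEF libraries (log2 1.38, adjusted p = 0.000234, edgeR) and with no filter on low counts (4.09e-10), and so did Rian (8.88e-05 and 5.02e-13). Long noncoding RNAs were higher for 14 of 20 and lower for 5. Lncenc1, a regulator of glycolysis genes in stem cells, had 315 and 311 CPM in the ESC libraries, against 3.04 and 3.35 CPM in the DMEF libraries (log2 6.61, SE 0.26), and Tunar had 5.32 and 5.7 CPM in ESC and no count in DMEF, at least 103-fold higher. Neat1, the scaffold of paraspeckles, was lower with 17.1 and 19.3 CPM in ESC, against 65.8 and 76.1 CPM in DMEF, as was Malat1 with 259.5 and 292 CPM in ESC, against 967 and 925 CPM in DMEF, though not in 3 of the 4 fits that leave out 1 library (adjusted p = 0.0627 to 0.0905, edgeR). Without ESC replicate 1 or DMEF replicate 2 the lower count was 3. With genes at 0 in a line set to their bounds, the median of this list was 4.10 in place of 4.68, and the other medians given here did not differ to 2 decimals. Ddx3y, a gene of the Y chromosome, was present in both lines, with 41.4 and 43.3 CPM in ESC, against 81.4 and 49.8 CPM in DMEF, and Kdm5d was lower in ESC with 2.18 and 1.68 CPM in ESC, against 27.7 and 22.1 CPM in DMEF. Xist was at or below 0.298 CPM in all 4 libraries.

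**Figure D3:**
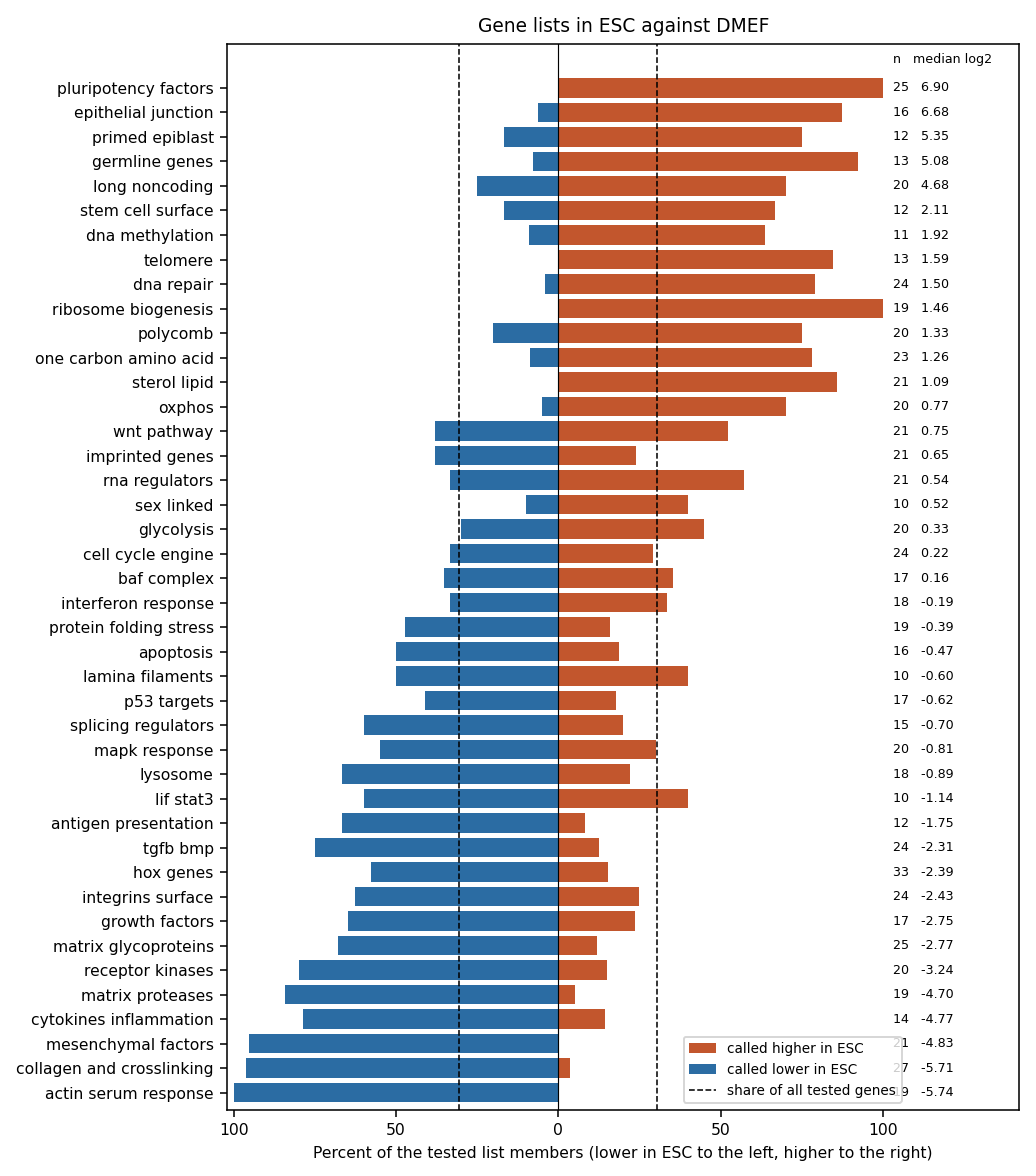
For each list with at least 10 tested genes, the percent of tested members called higher in ESC (orange, right) and lower (blue, left), sorted by the median log2 difference ESC minus DMEF printed at the right with the number tested. Dashed lines mark the shares over all tested genes, 30.3% higher and 30.5% lower. The lists were chosen with earlier results of these data known.

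By chromosome, the difference was not centred on the same value everywhere. The values are relative to the TMM scaling, under which the median of all genes was 0.06. With library totals alone it was 0.41 and with upper-quartile factors 0.34, so only the spacing between chromosomes is read here and not the sign. Among genes at a mean of 10 CPM or more, the median log2 difference was 0.48 on chromosome 6 (453 genes), 0.31 on chromosome 11, 0.29 on chromosome 8, 0.16 on chromosome 17 and 0.13 on chromosome 7. On the other chromosomes it was lower than these, the lowest autosomal value being -0.44 on chromosome 10. On chromosome 6, 42.4% of the tested genes were higher in ESC and 25.3% lower, and on chromosome 10 26.2% were higher and 37.5% lower. The median difference between the ESC replicates was 0.02 or less on every chromosome. Between the DMEF replicates it ran from -0.07 on chromosome 7 to 0.05 on chromosome 1 among the autosomes, and it was 0.12 on X and 0.51 on Y, which holds 4 genes at this level. No test was made of these medians, since genes of a chromosome are not replicates.

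Clusters of neighbouring genes moved together outside the Hox loci as well. On chromosome 13 (65335641 to 66862122, GRCm38.p6) 7 neighbours, among them Zfp640, were higher in ESC past 4-fold, with a median log2 of 5.31, and on chromosome 4 (147305604 to 147702631) the 5 zinc-finger genes Zfp988, Zfp982, Zfp985, Zfp979 and Zfp534 were higher with a median of 6.35. Both are families of near-identical copies, so reads may be split among members. On chromosome 17 (36080110 to 36190151) 5 genes of the major histocompatibility region from H2-Bl to H2-T3 were higher, with a median of 6.16, whereas B2m, given above, was lower. On chromosome 19 (34190378 to 34576534) 6 neighbours from Stambpl1 to Ifit2, Acta2 and Fas among them, were lower with a median of -5.11, and the clustered protocadherins Pcdhb16 to Pcdhb22 on chromosome 18 were lower with a median of -3.79.

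Promoters of the genes that were higher in ESC differed in base content from the rest. The promoter is here the 300 bases from 250 before to 50 after the annotated start (RefSeq, GRCm38.p6), available for 11421 of the tested genes. The median number of CpG dinucleotides was 12 for the 1231 genes higher in ESC past 4-fold, 21 for the 1406 lower past 4-fold and 22 for the 3717 genes that were not called. Under 5 CpG were found in 17.5% of the higher genes, 9.25% of the lower genes and 6.56% of all. The median GC content was 58% for the higher genes, 64% for the lower genes and 62% for all.

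**Figure D4:**
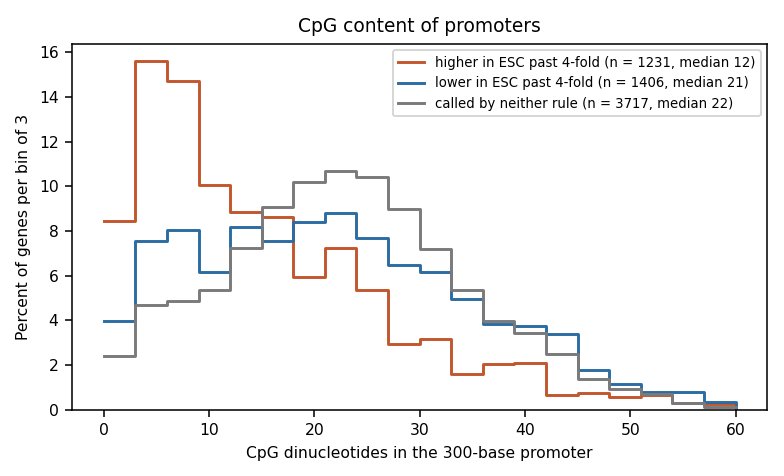
Distribution of the number of CpG dinucleotides per 300-base promoter, as the percent of genes in bins of 3, for genes higher in ESC past 4-fold (n = 1231), lower past 4-fold (n = 1406) and not called (n = 3717). The higher genes peak below 10 CpG, with a median of 12, and the other groups have medians of 21 and 22.

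Known motifs were counted in these windows on both strands, and a match is only a run of letters. The octamer ATGCAAAT, the site that Oct4 binds, was present in 3.41% of promoters of genes higher past 4-fold, 1.85% of those lower and 1.70% of all. The GC content of these sets differed, as given above, and its part in the motif shares was not tested. The Sox site ACAATG was present in 10.3% of the higher, 8.82% of the lower and 9.04% of all. The TEAD site GGAATG was in 18.5% of the higher, 17.7% of the lower and 14.8% of all. Some other motifs were counted and are not given here. The CArG box, the site of Srf, was present in 1.62% of the higher, 2.84% of the lower and 1.60% of all. The AP-1 site TGANTCA was present in 7.55% of the higher, 8.46% of the lower and 6.14% of all. The TATA box TATAAA was in 12.3% of the higher, 13.6% of the lower and 9.11% of all, while the NRF1 site was in 1.38% of the higher, 0.853% of the lower and 2.21% of all. The shares refer to single windows, and motifs outside them were not analysed. Of the pluripotency list, 16 members had a promoter in the reference and 1, Zfp42, held the octamer. Of the contractile list, 16 had a promoter and 4 (25%) held a CArG box: Cnn2, Myl9, Srf and Vcl. These promoters are shown because they join a list member's level to the motif of a factor in the same list, and Clca3b because it had the greatest difference among octamer genes at 10 CPM or more. Capitals mark the octamer, read from either strand, in Zfp42 and Clca3b and the CArG box alone in the others, and each line runs 5′ to 3′ on the gene's strand.
Zfp42, chr8:43306960-43307259, minus strand: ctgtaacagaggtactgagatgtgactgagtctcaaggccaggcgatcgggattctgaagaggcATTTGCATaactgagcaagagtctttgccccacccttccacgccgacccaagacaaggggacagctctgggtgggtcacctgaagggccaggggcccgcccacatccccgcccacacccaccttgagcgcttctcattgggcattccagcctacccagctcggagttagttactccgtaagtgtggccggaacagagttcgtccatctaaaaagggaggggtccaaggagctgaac
Clca3b, chr3:144849253-144849552, minus strand: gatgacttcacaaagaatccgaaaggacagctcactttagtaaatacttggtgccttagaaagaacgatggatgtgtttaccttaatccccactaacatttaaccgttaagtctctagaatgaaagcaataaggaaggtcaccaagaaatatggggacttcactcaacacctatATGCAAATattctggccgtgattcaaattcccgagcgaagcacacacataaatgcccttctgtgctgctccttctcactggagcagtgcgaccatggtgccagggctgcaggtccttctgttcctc
Myl9, chr2:156775214-156775513, plus strand: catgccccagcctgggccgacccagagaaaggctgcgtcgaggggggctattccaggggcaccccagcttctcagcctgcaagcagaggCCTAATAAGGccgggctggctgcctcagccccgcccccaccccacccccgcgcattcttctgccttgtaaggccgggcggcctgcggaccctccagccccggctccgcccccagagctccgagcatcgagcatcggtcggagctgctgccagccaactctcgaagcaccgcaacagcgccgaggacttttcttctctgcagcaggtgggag
Cnn2, chr10:79988350-79988649, plus strand: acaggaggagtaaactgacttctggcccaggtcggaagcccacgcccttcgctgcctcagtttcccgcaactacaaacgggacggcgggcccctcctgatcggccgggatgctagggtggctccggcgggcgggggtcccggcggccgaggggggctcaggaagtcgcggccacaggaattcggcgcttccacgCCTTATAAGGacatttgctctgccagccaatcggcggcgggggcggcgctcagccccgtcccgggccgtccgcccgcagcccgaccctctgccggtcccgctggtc
Vcl, chr14:20929148-20929447, plus strand: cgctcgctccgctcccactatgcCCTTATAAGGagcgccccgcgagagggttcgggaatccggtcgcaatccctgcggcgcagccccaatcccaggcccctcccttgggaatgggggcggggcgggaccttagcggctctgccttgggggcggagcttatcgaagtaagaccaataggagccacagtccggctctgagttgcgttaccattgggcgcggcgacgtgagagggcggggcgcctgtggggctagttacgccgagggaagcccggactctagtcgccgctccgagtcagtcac
Srf, chr17:46556113-46556412, minus strand: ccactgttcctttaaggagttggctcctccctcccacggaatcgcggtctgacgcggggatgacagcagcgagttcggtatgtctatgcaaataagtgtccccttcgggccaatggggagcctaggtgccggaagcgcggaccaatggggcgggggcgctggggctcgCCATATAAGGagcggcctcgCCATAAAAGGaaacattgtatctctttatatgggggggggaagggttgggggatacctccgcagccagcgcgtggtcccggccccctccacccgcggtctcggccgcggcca

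Beside these windows, Zfp42 (Rex1), a marker of the naive state, had 109.7 and 108 CPM in the ESC libraries, against 1.0 and 0.966 CPM in the DMEF libraries (log2 6.78, SE 0.49), and its octamer begins at base -186 from the start. Clca3b, a family member of the chloride channel accessory proteins, had 21.1 and 20.8 CPM in the ESC libraries, against 0.12 and 0.0966 CPM in the DMEF libraries. The CArG box begins at base -161 in Myl9, a myosin light chain, which had 10.3 and 13.1 CPM in the ESC libraries, against 1319 and 1671 CPM in the DMEF libraries (log2 -7.00, SE 0.26). In Cnn2, a calponin, it begins at base -56, and the gene had 24.7 and 25.6 CPM in ESC, against 1692 and 1749.5 CPM in DMEF. In Vcl, vinculin of focal adhesions, it begins at base -227, and the gene had 192 and 192 CPM in ESC, against 3099.9 and 2538 CPM in DMEF. The Srf promoter held 2 matches, the first at base -82, and Srf itself was lower in ESC as given above. The Srf window also holds the octamer letters, at base -165 and in lower case here. Overlap between different motifs was not searched for.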

How the data were processed

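Messenger RNA was measured in 2 ESC, 2 DMEF and 2 CIMEF libraries. Per the labels' protocols, poly(A)-selected RNA was made into libraries with a directional kit and sequenced as 40 nt single-end reads. The authors deposited raw read counts per gene, a table made with cutadapt, STAR 2.4 and HTSeq 0.9.1 on mm10/GRCm38 per the submitters' processing notes. The strand setting of counting is not given in the sources used here, so reads of overlapping antisense genes cannot be told apart.

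Counts were analysed with edgeR 4.0.16 (R 4.3.3): filterByExpr, TMM factors, and a quasi-likelihood fit over all 6 libraries, which shared 1 estimate of spread, with Benjamini-Hochberg adjustment over 18094 genes. The second rule tested against 4-fold (glmTreat). DESeq2 1.42.0 was an alternative. Replicates of a line differed beyond sampling noise and were kept apart. Same-numbered replicates did not pair. The fit was checked on simulated counts in which only a small part of the genes differed, in random directions. That check does not bear on the choice of scaling. The genes described are list members, the largest differences at 10 CPM or more in the higher line, the most abundant genes and those differing most between replicates. The members and gene lists were chosen with earlier results of these data known. Promoters and positions are from RefSeq, GRCm38.p6, matched by symbol (16382 genes positioned).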

Additional observations from a re-analysis of the deposited data

How the results depend on the processing

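The calls of the 2 lines held their overall size under most settings. Genes called higher numbered 3726 to 4911, and genes called lower 4015 to 4920, when 1 library was left out, against 5488 and 5513. Past 4-fold DESeq2 called 1165 genes higher, against 1798, and no other setting moved an overall count by over 1.5 times. No named gene reversed its direction as a call under any of these settings. The markers Tubb3, Pax6, Krt7, Tead4, Eomes, Cd68, Des, Myh3 and Actc1 are described from the main fit alone. So are Stat3, Cish, Lif, Pim1, H2-D1, H2-T23 and H2-K1. Calls of all these genes under other settings are not given. Same-numbered replicates had correlations of deviations of -0.02, 0.00 and 0.06, so the numbers do not pair the samples, and a fit with the replicate block called 5295 genes higher and 5361 lower. Of 261 named genes that were called, 15 lost their call under at least 1 setting: Acan, Dcn, Dicer1, Dlk1, Dnmt3a, Dusp6, Hoxb13, Hoxc12, Krt19, Ldha, Lifr, Malat1, Ptbp1, Slc2a1 and Smarcc1. Dicer1 and Dnmt3a also lost it with no filter on low counts (adjusted p = 0.157 and 0.205, edgeR) and with the replicate block (0.0623 and 0.0662), and Dlk1 without DMEF replicate 2 (0.0505). Of 31 named genes that were not called, 14 passed under at least 1 setting: Ago2, Ddx3y, Dnmt1, Ebf1, Gm42418, Hoxb9, Lamc1, Lum, Meg3, Plk1, Pou3f1, Rian, Tcf7l1 and Tgfbr1.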
